A study of Homo sapiens
Mus musculus with 8 samples.

Results

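EL4 is a mouse lymphoma line of CD4 T cells, and the study had mixed it in equal parts with the mouse B cell line IVA12 and the human T cell lines Jurkat and TALL-104. The mixture was captured in 10x Genomics Chromium droplets, in which each cell receives a barcode and each mRNA molecule a unique molecular identifier (UMI). The comparison described here is between 2 preparations of that mixture, both run with the 3′ v3 kit, which counts mRNA from its 3′ end: preparation F, behind libraries 21 and 23, and preparation G, behind libraries 22 and 24. The letters are those of the study's sample list, which gives both preparations the same viabilities of the lines. The targeted number of cells was 3000 in libraries 21 and 22 and 6000 in libraries 23 and 24, and no library carried a treatment. Lines were grown in culture, washed in phosphate-buffered saline and mixed by their counts of viable cells. Only 1 mixture of cells stands behind each pair of libraries. The p-values therefore measure the spread between libraries of the same mixture, and the preparation cannot be told apart from anything else that differed between the mixtures.

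EL4-like cells were selected on measured values. A barcode needed at least 5000 UMIs, over 80% of them mouse, and under 10% of its mouse UMIs on mitochondrial genes. The sum of Lgals1, S100a6 and Perp had to be at least 0.05% of its mouse UMIs and at least 5 times the sum of Epcam, Cd24a, Ctss and Ckap4, which mark IVA12. The rule kept 1445 and 2678 cells in libraries 21 and 23 of preparation F, and 550 and 1231 cells in libraries 22 and 24 of preparation G. These 5904 cells were taken from 10417 mouse barcodes with at least 5000 UMIs in the 3′ v3 libraries, and 8271 of 14470 such barcodes met the rule in the 7 libraries of the 3 kits used. The labels list 8 libraries, and library 1, of the 3′ v2 kit, was not analysed here. A mirrored rule gave 3270 IVA12-like cells for comparison, with a minimum of 0.01% that was chosen after its values were seen. Barcodes of EL4-like cells were compared between the 3′ v3 libraries by their position in the matrix, and their sequences were not compared. Of these positions, 1 was shared between libraries 21 and 22 and none between the other pairs.

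The values used for the choice differed between the preparations and were not tested. The summed share of Lgals1, S100a6 and Perp had a median of 0.228% and 0.216% in libraries 21 and 23, and of 0.132% and 0.128% in libraries 22 and 24. G therefore lay nearer to the limit, with 13 and 12 cells between 0.05% and 0.06% against 4 and 4 cells in F. Just outside it, between 0.04% and 0.05%, were 2 and 2 barcodes in F and 4 and 8 in G. A mitochondrial share between 9% and 10% was held by 24 and 9 cells in F and 21 and 34 cells in G, and 7 and 8 barcodes in F and 4 and 20 in G lay between 10% and 11%. The median mitochondrial share was 5.62% and 4.22% in F and 6.58% and 6.65% in G.

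The label of a T cell line was borne out by the genes of the CD3 complex and Thy1, but not by Cd4. Cd4 had 4, 2, 1 and 2 UMIs in libraries 21, 23, 22 and 24, over all EL4-like cells, and Cd8a had none in any of them. The 11 markers of the B line that the rule did not use summed to 11.02 and 20.6 CPM (UMIs of a gene per 1000000 mouse UMIs of the cells) in libraries 21 and 23 and to 8.80 and 15.6 CPM in libraries 22 and 24, against 415 to 629 CPM in IVA12-like cells. H2-Eb1 and Pax5 went the other way, with 1.82 to 4.32 CPM and 0.352 to 1.45 CPM in EL4-like cells and 0.708 to 1.39 CPM and 0.281 to 0.442 CPM in IVA12-like cells. H2-Ab1 had no UMI in EL4-like cells and at most 0.056 CPM in IVA12-like cells. The 6 macrophage markers summed to 2.25 to 3.52 CPM, and the 2 haemoglobin genes had at most 0.013 CPM.

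The libraries differed in content. They held 117602776 and 251164949 UMIs in F and 38116299 and 92113015 UMIs in G, and human genes took 31.6% and 30.2% of them in F but 13.3% and 15.5% in G. Depth per EL4-like cell was close, with medians of 29430 and 28510.5 UMIs in F and 29399 and 27455 UMIs in G. Library 24 held 6 EL4-like barcodes with over 100000 UMIs, up to 691565, which made up 7.51% of its EL4-like UMIs, and library 23 held 1. Human UMIs, which in a mouse cell come from free RNA or from a second cell in the droplet, had a median share of 0.435% and 0.937% in F and 0.169% and 0.294% in G. That difference of -0.455 points gave an exact two-sided permutation p of 0.33, the smallest that 2 libraries against 2 allow, so this design cannot reach 0.05.

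At an equal depth of 5000 UMIs, EL4-like cells showed more genes in preparation G. The median was 1812.5 and 1787 genes in libraries 21 and 23 and 2007 and 2005 genes in libraries 22 and 24. The preparations did not overlap, the difference was 206.25 genes, and the exact permutation p was again 0.33, the smallest possible. Without thinning, the medians were 4735 and 4616 genes in F and 5277 and 5123 genes in G.

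Some background helps to read the gene groups. Neat1 and Malat1 are long RNAs that stay in the nucleus, and Neat1 builds the paraspeckles, nuclear bodies that grow under several kinds of stress. Ribosomal proteins, proteasome subunits and enzymes of glycolysis and of the respiratory chain are the abundant housekeeping mRNAs of growing cells. Hypoxia-inducible factors raise glycolytic enzymes together with genes such as Bnip3 and Adm when oxygen is low, and immediate early genes such as Egr1 respond within minutes to receptor signals and to handling.

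UMIs were summed over the EL4-like cells of each library and compared gene by gene with edgeR's quasi-likelihood test. Levels below are CPM after TMM scaling, which levels the bulk of genes, and differences are log2 values of G minus F. Of 11898 genes tested, 6870 (57.7%) were called at a Benjamini-Hochberg adjusted p under 0.05. They were 3267 genes higher in G (27.5%) and 3603 genes lower in G (30.3%), and 7363 genes had an unadjusted p under 0.05. Differences beyond 1.5-fold were called for 1527 genes (12.8%), of which 612 were higher (5.14%) and 915 lower (7.69%). In 4632 genes both libraries of G lay above both of F, and in 4824 both lay below, which together is 79.5% of the genes tested. Since more genes were called than not, a gene or a list is read here against these shares. Leaving out a library of G lowered the number called over all genes, higher and lower alike, and leaving out a library of F raised it. Counts of a list with a library left out follow that change in part and are not a trait of the list alone.

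The scaling decides the balance of the calls. On library totals without TMM, the median difference of all genes was 0.35 instead of -0.01. Of the called genes, 77.1% were then higher in G instead of 47.6%. There 5571 of 11898 genes were called higher and 1652 lower, and counts of a list on library totals are read against these. The number past 1.5-fold was then 2555 instead of 1527. The TMM factors were 0.899 and 0.867 in F and 1.13 and 1.14 in G. The medians of the lists below are therefore given on both scalings, to be read against the median of all genes on the same scaling. Since the change of scaling moves all genes alike, a list whose sign turns with it keeps its place among the other genes.

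**Figure D1:**
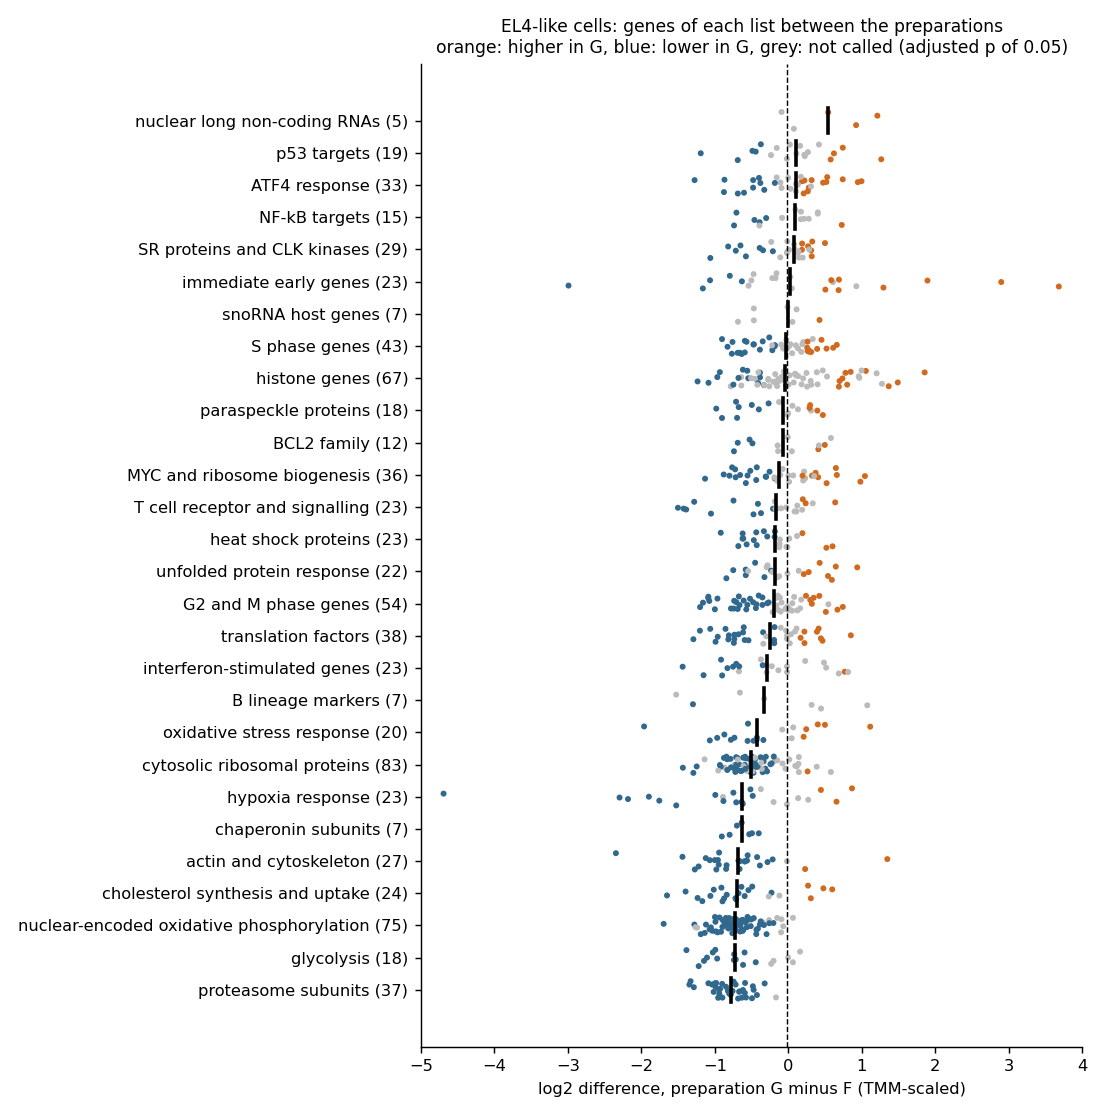
The plot shows log2 differences of G minus F (horizontal axis, TMM-scaled) for the tested genes of each list, with the number of genes in parentheses, a black bar at the list's median and a dashed line at the median of all genes, -0.01. Proteasome, glycolysis and oxidative phosphorylation lists lay to the left with medians of -0.79, -0.73 and -0.72, and the 5 nuclear RNAs to the right with 0.54. The median of these 5 is the value of Neat1.

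Nuclear RNAs had the highest median of the lists with at least 5 genes tested. Of 5 nuclear long non-coding RNAs tested, 3 were higher in G and none lower, with a median of 0.54, or 0.90 on library totals. On both scalings that median is the value of Neat1 itself, so list and gene are not separate results. Neat1 stood at 147 and 119 CPM in libraries 21 and 23 and at 199.8 and 187 CPM in libraries 22 and 24. Both libraries of G were above both of F, as in 4632 of the 11898 genes tested. The difference was 0.54 ± 0.11 (SE, edgeR adjusted p = 0.00429), although it was not past 1.5-fold (adjusted p = 0.943). Per cell thinned to 5000 UMIs, Neat1 was seen in 42.8% of cells in library 21 (exact 95% binomial interval 40.2% to 45.4%) and 36.3% in library 23 (34.4% to 38.1%). It was seen in 64.6% in library 22 (60.4% to 68.6%) and 62.0% in library 24 (59.3% to 64.8%). More cells of G thus held a Neat1 molecule at the same depth. These shares carry no TMM scaling, and on library totals 7062 of 11898 genes had both libraries of G above both of F. Without thinning the shares of cells with Neat1 were 88.2%, 83.9%, 95.5% and 95.5% in the same order. Intervals cover counting error only.

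Kcnq1ot1, an imprinted antisense transcript that silences its neighbours, had 193 and 166 CPM in F and 340.0 and 340.2 CPM in G, a difference of 0.92 ± 0.08 that was past 1.5-fold. Ftx, which lies in the X-inactivation centre, was low throughout, at 2.09 and 3.51 CPM in F and 6.13 and 7.02 CPM in G. Malat1 did not separate the preparations. It had 2234 CPM in library 21 and 4350.4 CPM in library 23, which enclosed the 3326 and 3609 CPM of G, and its difference was 0.07 ± 0.43 (adjusted p = 0.905). The 2 libraries of F decide it: without library 21 the difference was -0.30 (adjusted p = 0.000207) and without library 23 it was 0.62 (adjusted p = 4.39e-11). IVA12-like cells of the same libraries of F also differed, with 5597 and 9451 CPM.

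The proteins that work with these RNAs did not follow Neat1. Of 18 paraspeckle proteins, 4 were higher in G (22.2%, against 27.5% of all genes) and 8 lower (44.4%, against 30.3%). Their median was -0.07 and became 0.29 on library totals. Hnrnpk, an RNA-binding protein needed to form paraspeckles, fell from 587 and 579.5 CPM to 309 and 282 CPM (-0.98 ± 0.07), and Nudt21, a factor of 3′ end cleavage, from 446 and 398.5 CPM to 271 and 245 CPM (-0.71 ± 0.08). Fewer paraspeckle proteins were called higher when library 22 or 24 was left out, as over all genes. Of 29 splicing regulators among SR proteins and CLK kinases, 7 were higher (24.1%) and 8 lower (27.6%). These were near the shares of all genes, 27.5% and 30.3%. Their median was 0.08, or 0.44 on library totals. The higher ones among them were fewer when library 22 or 24 was left out and more when library 23 was, as over all genes. Rsrp1 (-1.06), Srsf3 (-0.82), Srsf7 (-0.72) and Srsf9 (-0.65) were the named members, all lower, of which Srsf9 was not called with free RNA subtracted (-1.08, adjusted p = 0.155). Of 7 snoRNA host genes tested, Snhg6 was called higher, at 172 and 198.5 CPM in F and 274 and 224 CPM in G (0.42 ± 0.12, adjusted p = 0.0198). That call was lost without library 21 (0.35, adjusted p = 0.0579) and without library 22 (0.26, adjusted p = 0.125). The median of the list was -0.01, or 0.35 on library totals, where 4 were higher. Without library 21, 3 host genes were lower, and without library 23, 3 were higher.

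**Figure D2:**
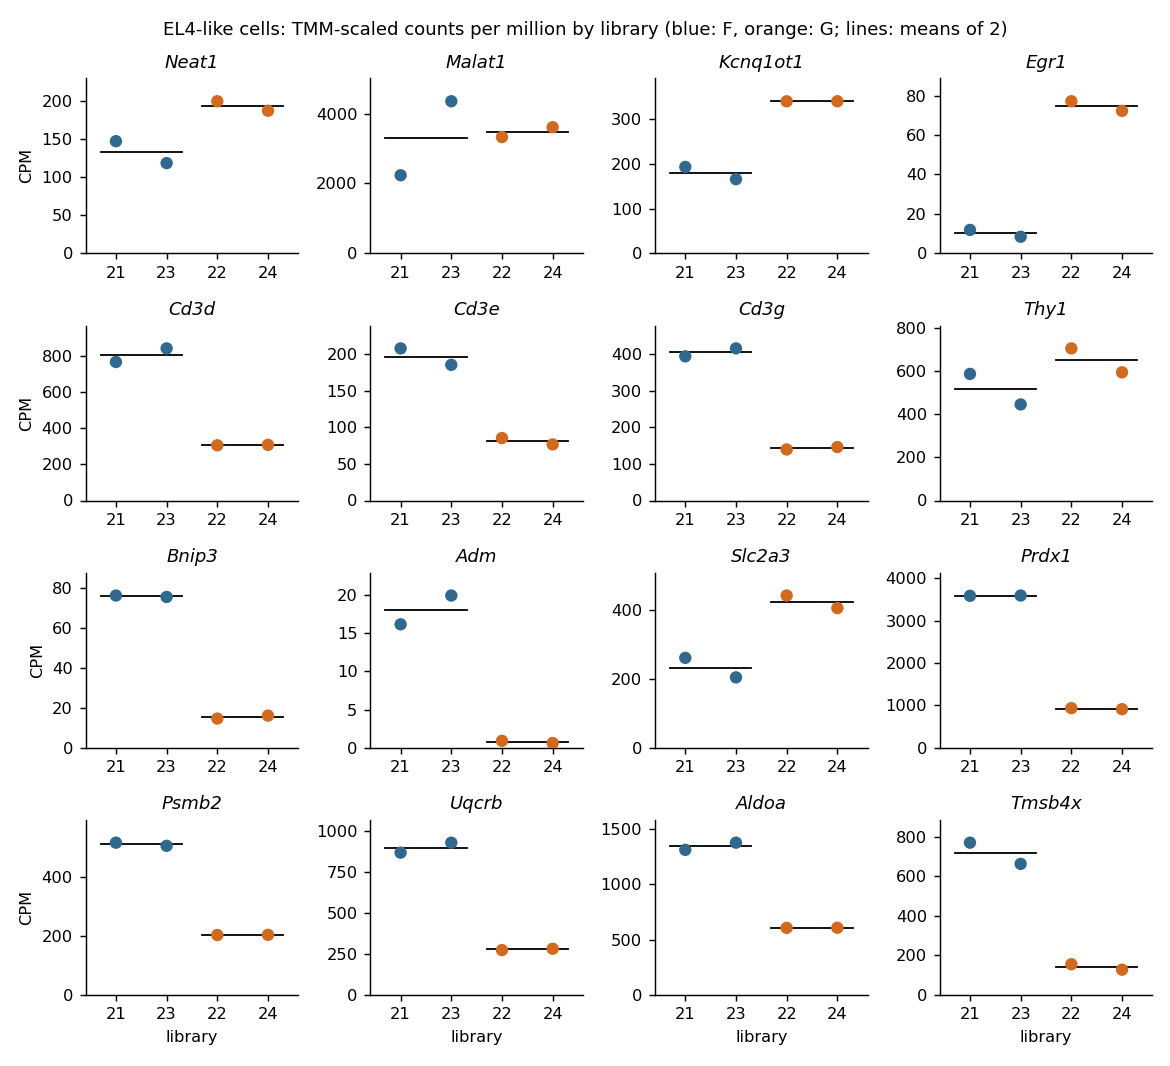
Each panel shows the TMM-scaled CPM of a gene in EL4-like cells (vertical axis from 0) in libraries 21 and 23 of preparation F (blue) and 22 and 24 of preparation G (orange), with lines at the means of 2 libraries. Neat1, Kcnq1ot1, Egr1 and Slc2a3 were higher in G, Thy1 and Malat1 were not called, and the other 10 genes were lower in G.

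Immediate early genes, which answer to signals within minutes, were called at shares not far from those of all genes. Of 23 tested, 8 were higher (34.8%, against 27.5% of all genes) and 5 lower in G (21.7%, against 30.3%), with a median of 0.03 (0.39 on library totals, with 12 higher and 4 lower). Egr1, a zinc finger transcription factor, rose from 11.9 and 8.42 CPM in F to 77.1 and 72.2 CPM in G, a difference of 2.90 ± 0.16 (adjusted p = 6.49e-05). It was the highest value among genes past 1.5-fold with a mean of at least 30 CPM over libraries 21 to 24, predicted genes left out. Egr1 passed the limit of 30 CPM only through G. Nr4a1, a nuclear receptor induced by T cell receptor signals, had 8.85 and 8.27 CPM in F and 38.7 and 25.6 CPM in G (1.89 ± 0.21, adjusted p = 0.00109). That call was lost without library 21 (adjusted p = 0.157) and without library 23 (adjusted p = 0.207), at differences of 1.94 and 1.80. Both libraries of F lay below the 10 CPM at which list members were named, so Nr4a1 passed that limit only through G. Zfp36, which speeds the decay of cytokine mRNAs, rose from 3.45 and 4.02 CPM to 9.91 and 8.66 CPM. Against these, the AP-1 subunits Fosb and Jund were lower in G. Fosb had 3.78 and 3.85 CPM in F and 0.780 and 0.314 CPM in G (-2.99 ± 0.34). Jund fell from 312 and 299 CPM to 132 and 141 CPM (-1.16 ± 0.07), while Fos, Jun and Junb were not called, with differences of -0.47, -0.50 and 0.05. In the fit with the targeted number of cells as a block, 10 genes of the list were lower instead of 5, and without library 21 there were 8.

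The targets of NF-kB were mostly not called. Of 15, 1 was higher (6.67%, against 27.5% of all genes) and 5 were lower (33.3%, against 30.3%), with a median of 0.10. On library totals, where more of all genes were called higher, 6 were higher and 2 lower, with a median of 0.46. The inhibitor Nfkbia fell by 0.74 and Nfkbid, another inhibitor of the family, rose by 0.73. Nfkbid lay below 10 CPM, the limit for naming list members, in both libraries of F and passed it only through G. Nfkb2, at -0.46, was no longer called on library totals (-0.10), and Nfkbib, at -0.30, was 0.06 there. Without library 22, 3 members were lower, and without library 24 there were 2, while 3 were higher without library 21 and 2 without library 23.

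Heat shock genes lay below the median of all genes on both scalings. As a share of a cell's mouse UMIs, which carries no TMM scaling, the list was not lower in G. Its median was 1.419% and 1.454% in libraries 21 and 23 and 1.475% and 1.556% in libraries 22 and 24. Of 23 heat shock proteins and their partners, 13 were lower and 3 higher, with a median of -0.19. On library totals the median was 0.17, with 5 lower and 11 higher. Of all 11898 genes, 1652 were lower and 5571 higher on that scaling. Hspa8, the constitutive cytosolic Hsp70, had 2541 and 2601 CPM in F and 1562 and 1645 CPM in G (-0.68 ± 0.06), and its partners Dnaja1 and Dnaja2 both fell by 0.62. Ahsa2, an activator of Hsp90, fell by 0.92. Hsf1, the factor that drives the response, was higher by 0.60, and Bag3 by 0.52. The 7 subunits tested, of 8 listed, of the chaperonin that folds actin and tubulin were lower, with a median of -0.64 (-0.27 on library totals, where 4 were called lower and none higher). Among them, Cct8 fell from 425 and 434 CPM to 231 and 228 CPM (-0.91 ± 0.06).

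The unfolded protein response of the endoplasmic reticulum had 7 genes higher and 7 lower of 22 (31.8% each), near the shares of all genes. The median was -0.19 and became 0.18 on library totals. The folding enzymes Pdia6 (-0.84) and Sdf2l1 (-0.75) were lower, whereas Syvn1 (0.94), a ubiquitin ligase of misfolded proteins, and the chaperone Hyou1 (0.65) were higher. The sensors Atf6 and Eif2ak3 were higher by 0.59 and 0.54. Hspa5, the main chaperone of the compartment, was not called (-0.28, adjusted p = 0.128). Without library 21, 12 genes of the list were lower instead of 7.

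Genes driven by ATF4, the factor of amino acid shortage, were close to the shares of all genes too, with 12 higher (36.4%) and 11 lower of 33 and a median of 0.10 (0.46 on library totals, with 21 higher and 4 lower). The higher members named were Slc7a1, a carrier of cationic amino acids (58.2 and 54.1 CPM in F, 113 and 111 CPM in G, 1.00 ± 0.07) and Sesn2 (0.95), a leucine sensor. Sesn2 lay below 10 CPM, the limit for naming list members, in both libraries of F and passed it only through G. Ddit4, an inhibitor of mTORC1, fell from 22.3 and 30.3 CPM to 10.4 and 11.3 CPM (-1.28 ± 0.16), and Cebpb fell by 0.87. Ddit4 was -0.66 (adjusted p = 0.0519) once the cells high in glycolysis genes, described further on, were left out. Fewer members were called, higher and lower alike, when library 22 or 24 was left out, as over all genes.

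Targets of p53 were called about as often as other genes. Of 19, 4 were higher (21.1%, against 27.5% of all genes) and 5 lower (26.3%, against 30.3%), with a median of 0.11. On library totals, where more of all genes were called higher, 10 were higher and 2 lower, with a median of 0.47. Past 1.5-fold were Pidd1 (1.26), a scaffold of caspase activation, and the death receptor Fas (-1.19). Without library 24, 3 targets were lower instead of 5. Bax, which permeabilises mitochondria, fell from 406 and 401 CPM to 254 and 247 CPM (-0.69 ± 0.06), and Ei24 fell by 0.44, a call that was lost on library totals (-0.08). Gtse1 rose by 0.74. Cdkn1a, the inhibitor of the cell cycle that p53 is best known to induce, was not called (-0.24, adjusted p = 0.135). Of 12 BCL2 genes, 2 were higher (16.7%, against 27.5% of all genes) and 4 lower (33.3%, against 30.3%). Their median was -0.07 (0.29 on library totals). The killers Bad (-0.74) and Bid (-0.53) were lower, Bid not being called on library totals (-0.17). Bcl2l11 was higher (0.50), but was not called in cells thinned to 5000 UMIs (0.18, adjusted p = 0.466). Trp53inp1, another p53 target, stood at 0.58 (adjusted p = 0.00242) and had no firm direction, since with free RNA subtracted it was -0.86 (adjusted p = 0.767). Bcl2l11 and Trp53inp1 lay below 10 CPM in both libraries of F and passed that limit for naming only through G.

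Oxidative stress genes were lower in G for the most part, with 12 lower and 5 higher of 20 and a median of -0.43 (-0.07 on library totals, with 6 lower and 8 higher). Prdx1, a peroxiredoxin that removes hydrogen peroxide, had 3587 and 3593 CPM in F and 933 and 908 CPM in G. The libraries of each preparation were nearly level, and the difference was -1.96 ± 0.06 (adjusted p = 1.14e-05). The NRF2 targets Hmox1 (-1.07) and Nqo1 (-0.97) were lower too. Sod1, the cytosolic superoxide dismutase, went the other way, from 47.3 and 57.1 CPM to 116 and 111 CPM (1.11 ± 0.10). Fewer genes of the list were called higher when library 22 or 24 was left out, as over all genes.

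The hypoxia list held the steepest falls among the stress lists. Of 23 genes tested, 14 were lower in G and 3 higher, 9 of the lower ones past 1.5-fold, with a median of -0.64 (-0.28 on library totals). Bnip3, which marks mitochondria for removal, had 76.3 and 75.6 CPM in F and 14.6 and 16.1 CPM in G (-2.30 ± 0.08, adjusted p = 1.14e-05). Its relative Bnip3l fell from 60.2 and 57.9 CPM to 18.3 and 16.8 CPM (-1.76 ± 0.08), and the peptide hormone Adm from 16.2 and 19.96 CPM to 0.891 and 0.603 CPM (-4.69 ± 0.20). Other members did not share this. Vegfa was higher by 0.44, Pfkfb3 by 0.66 and the glucose transporter Slc2a3 by 0.87, the last at 260.0 and 203 CPM in F and 440.5 and 404 CPM in G, while Pdk1 was not called (-0.02).

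Glycolysis enzymes were lower together. Of 18 genes, 13 were lower and none higher, 7 of them past 1.5-fold, with a median of -0.73 (-0.37 on library totals, with 12 lower and 3 higher). Aldoa, the aldolase of muscle type, fell from 1313 and 1378 CPM to 607 and 608 CPM (-1.15 ± 0.06). Pgam1 fell by 1.22 and Pfkl by 1.11. Ldha, which makes lactate, fell from 1652 and 1683 CPM to 829 and 805.5 CPM (-1.03 ± 0.06). Pgk1 was uneven in F, at 114 and 194 CPM, with 59.7 and 58.2 CPM in G, and its call (-1.39 ± 0.32, adjusted p = 0.0398) was lost at much the same difference without library 22 (-1.41, adjusted p = 0.160) or 24 (-1.37, adjusted p = 0.157), and with the targeted number of cells as a block (-1.35, adjusted p = 0.224). Hk1 and Hk2, which commit glucose to the pathway, were not called.

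Glycolysis and hypoxia genes were high in a minority of cells of preparation F. The share of a cell's mouse UMIs on the glycolysis list had a long upper tail in F, with a 95th percentile of 2.19% and 1.96% in libraries 21 and 23 but 0.883% and 0.899% in libraries 22 and 24. Cells with at least 1.3%, a limit chosen after the distribution was seen, numbered 224 of 1445 (15.5%, exact interval 13.7% to 17.5%) in library 21 and 399 of 2678 (14.9%, 13.6% to 16.3%) in library 23. In G they numbered 0 of 550 in library 22, which allows a share of up to 0.668% by the same exact interval (0.545% by a limit of 3 cells), and 1 of 1231 in library 24 (0.0812%). Within 0.1 points of the limit lay 48, 91, 0 and 1 cells of libraries 21, 23, 22 and 24. In F the limit thus fell in no gap. Whether the cells beyond it form a type of their own was not tested. In F their median depth was 27242 and 26184 UMIs, against 29756 and 29223 UMIs in the other cells, and their median mitochondrial share was 5.47% and 4.15%, against 5.65% and 4.23%.

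The same cells carried hypoxia genes. Over the 21 hypoxia genes that are not in the glycolysis list, the median share was 0.329% in the high cells and 0.095% in the rest of library 21, and 0.30% and 0.088% in library 23. The cells below the limit in libraries 22 and 24 had medians of 0.127% and 0.124%, above those of the remaining cells of F. These shares carry no TMM scaling, and on library totals all genes had a median log2 difference of 0.35. With TMM, the whole hypoxia list without the high cells had a median below 0, given further on. Bnip3 stood at 327 CPM of library totals in the high cells of library 21 and 26.96 CPM in its other cells, and at 308 and 28.1 CPM in library 23. Adm stood at 91.9 and 2.07 CPM in library 21 and at 107 and 3.41 CPM in library 23. Across cells, the correlation of both shares was 0.864 and 0.898 in F and 0.129 and 0.222 in G (Pearson, 1445, 2678, 550 and 1231 cells of a library each, sharing its free RNA), given as a description. Msmo1, an enzyme of cholesterol synthesis, was higher in these cells as well (129 against 32.8 CPM in library 21), but the proteasome subunit Psmb2 (433 against 471 CPM) and Prdx1 (2482 against 3342 CPM) were not.

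**Figure D3:**
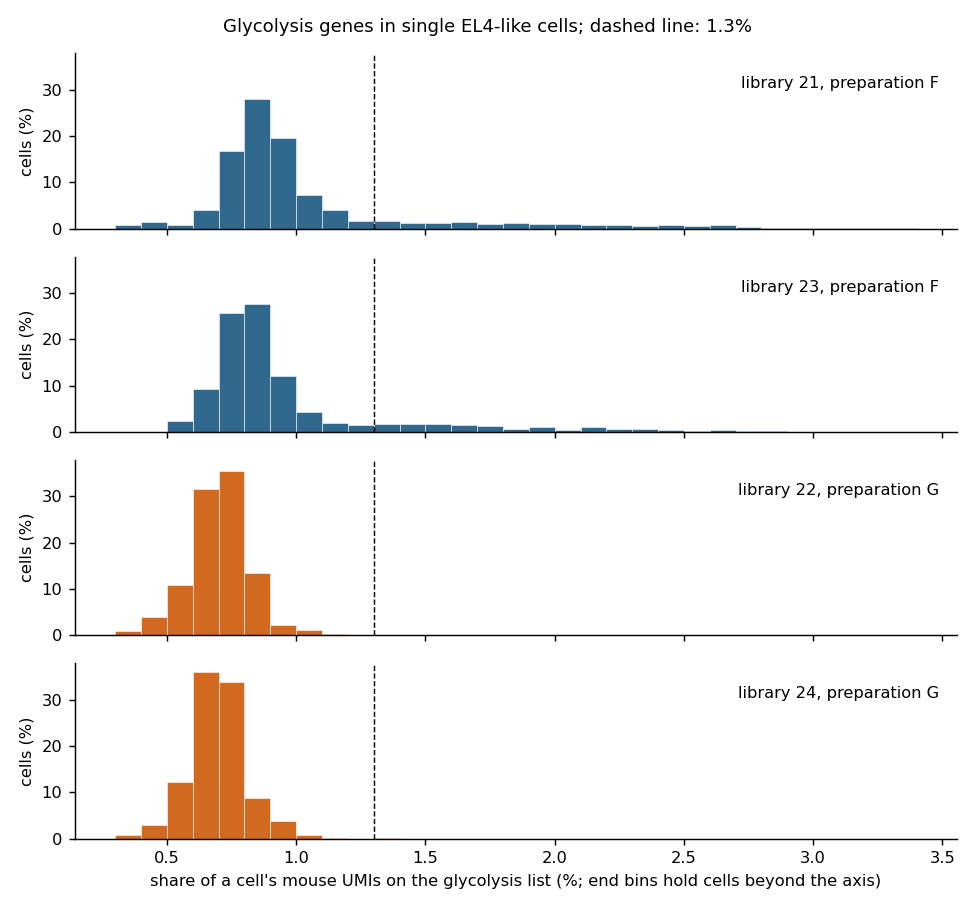
Histograms of the share of a cell's mouse UMIs on the glycolysis list (horizontal axis, %) against the percentage of EL4-like cells (vertical axis), by library, with a dashed line at 1.3%. The tail beyond the line held 15.5% and 14.9% of cells in libraries 21 and 23 of preparation F, and 0% and 0.0812% in libraries 22 and 24 of preparation G.

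Leaving out the cells with at least 1.3%, an alternative added after the data were seen, changed the hypoxia list most. It then had 7 genes lower and 5 higher instead of 14 and 3, with a median of -0.17. For the glycolysis list the change follows from the choice of cells, which was made on that list. It had 10 lower and 1 higher with a median of -0.41, and Slc2a1, a member of both lists, went from -0.99 (adjusted p = 0.000115) to -0.22 (adjusted p = 0.113). The count over all genes was 6842 instead of 6870, and 1466 instead of 1527 past 1.5-fold. IVA12-like cells of F showed a smaller share beyond the same limit, with 23 (3.99%) and 65 (4.27%) cells in libraries 21 and 23 and 1 (0.253%) and 0 cells in libraries 22 and 24. Their glycolysis share started lower, with medians in F of 0.647% and 0.62%, against 0.892% and 0.841% in EL4-like cells. The 95th percentile of IVA12-like cells was 1.248% and 1.261% in F and 0.736% and 0.684% in G, so an upper tail in F was present there too.

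The lowest median of the lists tested was that of the proteasome, which degrades ubiquitin-tagged proteins. Of 37 subunits tested, 36 were lower in G and none higher, 21 past 1.5-fold, with a median of -0.79 (-0.43 on library totals, with 30 lower and none higher). Psmb2 of the core particle had 518 and 507 CPM in F and 203.5 and 204 CPM in G (-1.33 ± 0.06, adjusted p = 2.03e-05). Psma1 (-1.35) and Psmb3 (-1.29) of the core and the ATPase Psmc6 (-1.09) of the cap followed. Psmd1 was the subunit not called (-0.17). The shift was seen over the whole range of cells: the subunits took a median of 0.966% and 0.931% of a cell's mouse UMIs in libraries 21 and 23 and 0.682% and 0.674% in libraries 22 and 24.

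Nuclear genes of oxidative phosphorylation were lower to a like degree, with 65 lower and none higher of 75, 29 past 1.5-fold, and a median of -0.72 (-0.36 on library totals, with 46 lower and 4 higher). Uqcrb, a subunit of complex III, fell from 866 and 926 CPM to 272 and 280.3 CPM (-1.70 ± 0.07). Ndufa11 (-1.28), Ndufa4 (-1.19) and Ndufb4 (-1.14) were the next named. The genes encoded by the mitochondria themselves were limited by the rule and are given without a test. They summed to 56669 and 42660 CPM of library totals in F and to 65892 and 61374 CPM in G. All genes tested had a median difference of 0.35 on that scaling, so higher values in G were not particular to these genes. Their sums with TMM scaling are not given.

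Cytosolic ribosomal proteins had 59 of 83 genes lower and 1 higher, 13 past 1.5-fold, with a median of -0.50. On library totals this was -0.14, with 30 lower and 11 higher. Without library 21 there were 5 higher, without library 23 there were 4, and without 22 or 24 none. Rps3a1 fell from 6696 and 6493 CPM to 3479 and 3434 CPM (-0.93 ± 0.05). Rps26 (-1.44 ± 0.21) and Rpl39 (-1.29 ± 0.24) fell further but were uneven in F, where Rpl39 had 6014 and 9172 CPM, and Rpl39 was no longer called without library 22 (-1.29, adjusted p = 0.0581) or 24 (-1.30, adjusted p = 0.0502). Rps26 was not called with free RNA subtracted (-1.82, adjusted p = 0.074). Ribosomal protein genes and others of this kind are known to have near-identical copies, between which counting can split reads. This was not examined here, and their counts are uncertain to that extent. Translation factors had 20 of 38 lower and 8 higher, with a median of -0.25 that became 0.11 on library totals. The initiation factors Eif3e (-1.29), Eif4a1 (-1.20) and Eif3m (-0.99) and the elongation factor Eef1d (-1.06) were the named ones, all lower. Fewer translation factors were called higher when library 22 or 24 was left out, as over all genes.

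Ribosome biogenesis genes had a median slightly below that of all genes on both scalings. Of 36 genes around MYC and the making of ribosomes, 16 were lower (44.4%, against 30.3%) and 9 higher (25%, against 27.5%), with a median of -0.13 (0.23 on library totals). The small nucleolar protein Nop10 fell from 406 and 392 CPM to 176 and 187 CPM (-1.13 ± 0.07), and Mrto4 fell by 0.88. Polr1a, the large subunit of RNA polymerase I, rose from 25.4 and 23.8 CPM to 47.1 and 49.7 CPM (0.98 ± 0.08) and Rrp12 by 1.04. Myc itself was lower by 0.31 and stood at 0.05 on library totals.

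The list of G2 and M phase lay below the median of all genes on both scalings, and that of S phase lay close to it. Of 43 S phase genes, 18 were lower (41.9%, against 30.3% of all genes) and 11 higher (25.6%, against 27.5%). Their median was -0.03, or 0.33 on library totals with 9 lower and 25 higher. Of 54 genes of G2 and M phase, 26 were lower (48.1%) and 8 higher (14.8%), 9 of the lower ones past 1.5-fold. Their median was -0.20, or 0.16 on library totals with 17 lower and 23 higher. Rrm2, a subunit of ribonucleotide reductase, fell by 0.90. Ube2c (-1.20) and Cdc20 (-1.16), which act in the exit from mitosis, and Birc5 (-1.09) were lower, whereas Mki67 was higher, from 226 and 232 CPM to 346 and 381 CPM (0.67 ± 0.07). The median share of G2 and M genes per cell was 0.851% and 0.843% in F and 0.824% and 0.839% in G, and that of S phase genes was 0.42% and 0.41% in F and 0.50% and 0.492% in G. In both lists fewer genes were called higher when library 22 or 24 was left out, as over all genes.

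Histone genes had 44 of 67 members not called. Lower were 13 (19.4%, against 30.3% of all genes) and higher 10 (14.9%, against 27.5%). The median was -0.04, or 0.32 on library totals. The linker histones Hist1h1c (1.49) and Hist1h1e (1.37) were higher, the latter from 49.2 and 62.5 CPM to 143 and 146 CPM. The variant H2afz fell from 3372 and 3450 CPM to 1584 and 1628 CPM (-1.09 ± 0.06). Without library 23, 22 histone genes were higher instead of 10.

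Cholesterol synthesis and uptake had 18 of 24 genes lower and 4 higher, 10 past 1.5-fold, with a median of -0.69 (-0.33 on library totals). The enzymes Msmo1 (-1.65), Fdps (-1.40), Pmvk (-1.24) and Ebp (-1.17) were lower. The 4 higher genes included Srebf2 (0.60), the factor that drives the pathway. Without the cells high in glycolysis genes the median was -0.46, with 17 lower. The genes called higher were fewer when library 22 or 24 was left out, as over all genes.

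Actin and cytoskeleton genes were lower in 24 of 27 cases and higher in 2 (1 without library 22 or 24), 13 of the lower ones past 1.5-fold, with a median of -0.68 (-0.32 on library totals). Tmsb4x, the thymosin that holds actin monomers, had 770.4 and 663 CPM in F and 155 and 127 CPM in G (-2.35 ± 0.12). Tmsb10 (-1.44), Arpc3 (-1.27) and profilin Pfn1 (-1.22) followed. Myh9, a heavy chain of non-muscle myosin, was among the most raised genes of the comparison, from 54.1 and 64.9 CPM to 151 and 152 CPM (1.35 ± 0.09).

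Genes of T cell identity did not move as a block. Of 23 T cell receptor and signalling genes, 10 were lower (43.5%, against 30.3% of all genes) and 3 higher (13.0%, against 27.5%). Their median was -0.17 and became 0.19 on library totals. The delta, gamma and epsilon chains of CD3, which carry the receptor's signal, were lower. Cd3d had 767 and 843 CPM in F and 306 and 308 CPM in G (-1.39 ± 0.07, adjusted p = 2.55e-05). Cd3g fell from 394 and 415 CPM to 139 and 146 CPM (-1.50 ± 0.07), and Cd3e from 208 and 185 CPM to 85.4 and 76.7 CPM (-1.28 ± 0.08). Cd2 fell by 1.05. Cd247, the zeta chain, was not called (-0.03), nor were Zap70 (-0.10), Lat (-0.15) and Thy1 (0.33, adjusted p = 0.137). Bcl11b, a transcription factor that keeps T cell identity, was higher, at 91.7 and 86.4 CPM in F and 140.2 and 137 CPM in G (0.64). Without library 21, 6 genes of the list were higher instead of 3, and without any other library 1 was.

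Cd3d was found in fewer thinned cells of G, at 95.2% and 96.6% in libraries 21 and 23 and 79.0% and 81.8% in libraries 22 and 24. Thy1 was found in more, at 90.5% and 83.0% in F and 97.6% and 95.3% in G. For Cd3d in IVA12-like cells, which should lack it, the shares were 2.78%, 4.59%, 0.759% and 2.19% in the same order, at unthinned medians of 35531.5, 33810, 29934 and 29083 UMIs. A selection of EL4-like cells by T cell genes in place of Lgals1, S100a6 and Perp, added after the data were seen, held 100%, 99.9%, 100% and 100% of the cells used here, and 6935 genes were called with it.

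Of 23 interferon-stimulated genes, 9 were lower (39.1%, against 30.3% of all genes) and 1 higher (4.35%, against 27.5%). The median was -0.30, or 0.07 on library totals with 7 lower and 6 higher. Without library 22 the higher ones were 2, and without library 23 they were 3. Ifi27 fell from 99.6 and 102 CPM to 37.4 and 37.1 CPM (-1.44 ± 0.07), and the restriction factor Bst2 by 0.92. Of the B lineage markers, 7 passed the filter on low counts and 1 was lower (3 without library 21). Neither of 2 macrophage markers was called, and no red cell marker passed the filter.

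Outside the lists, the highest differences after Egr1 were taken among genes past 1.5-fold with a mean of at least 30 CPM over libraries 21 to 24. Predicted genes were left out of this ranking. The highest differences were those of Adgrl1 (1.57), the cytolinker Dst (1.43), Rai1 (1.39), the histone methyltransferase Kmt2a (1.38) and Larp1 (1.38). Tpcn1 (1.33), Gabpb2 (1.28), E2f2 (1.27) and Trim56 (1.25) followed. Adgrl1, Dst, Rai1, E2f2 and Trim56 lay below 30 CPM in both libraries of F and passed the limit only through G. Kmt2a rose from 49.2 and 47.2 CPM to 123 and 128 CPM, and Larp1, which binds mRNAs of ribosomal proteins, from 105 and 86.6 CPM to 256 and 242 CPM. The lowest were Cpa3 (-2.43), Insl5 (-2.40), Cd52 (-2.25), S100a4 (-2.23), Serpinb1a (-2.17), Cd53 (-1.97), Mcts1 (-1.85), Fcer1g (-1.82) and Anxa1 (-1.82), besides Tmsb4x, Bnip3 and Prdx1. Of these, Insl5, Cd53, Anxa1 and Bnip3 lay below 30 CPM in both libraries of G and passed the limit only through F. Cpa3, a protease best known from mast cells, had 216 and 272 CPM in F and 47.1 and 43.7 CPM in G. Serpinb1a, an inhibitor of proteases, fell from 729 and 813 CPM to 173 and 170 CPM. The call of Anxa1 was lost without library 21 (-1.79, adjusted p = 0.0563) or 23 (-1.89, adjusted p = 0.0853).

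In IVA12-like cells of the same libraries, most of the growth lists were below the other genes as well. The proteasome list had a median of -1.09 there, oxidative phosphorylation -0.89, ribosomal proteins -0.41, actin -0.61, glycolysis -0.53 and nuclear RNAs 0.55. For the hypoxia list the median was 0.01 in IVA12-like cells against -0.64 in EL4-like cells, and for interferon-stimulated genes -1.44 against -0.30. A test of the difference between the lines, with the library as a block, called 2343 of 12994 genes (18%), 1283 with a higher and 1060 with a lower value in EL4-like cells. It called 875 genes without library 24 and 1105 without the library block. The balance was not stable, with 784 higher and 1730 lower without library 21, 678 and 1127 without the filter on low counts, and 1828 and 788 on library totals. Neat1 rose more in IVA12-like cells (0.89), and the difference of -0.31 between the lines was called (adjusted p = 0.0326). Kcnq1ot1 also rose more there (1.68, difference -0.71). Bnip3 fell further in EL4-like cells (-0.93 in IVA12-like cells, difference -1.32, adjusted p = 0.000153), and Slc2a1 was lower in EL4-like cells and was not called in IVA12-like cells (0.04, difference -1.01). For Uqcrb the lines differed by 0.09 (adjusted p = 0.339), for Aldoa by 0.11 (adjusted p = 0.164) and for Egr1, low in IVA12-like cells, by 1.18 (adjusted p = 0.192).

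**Figure D4:**
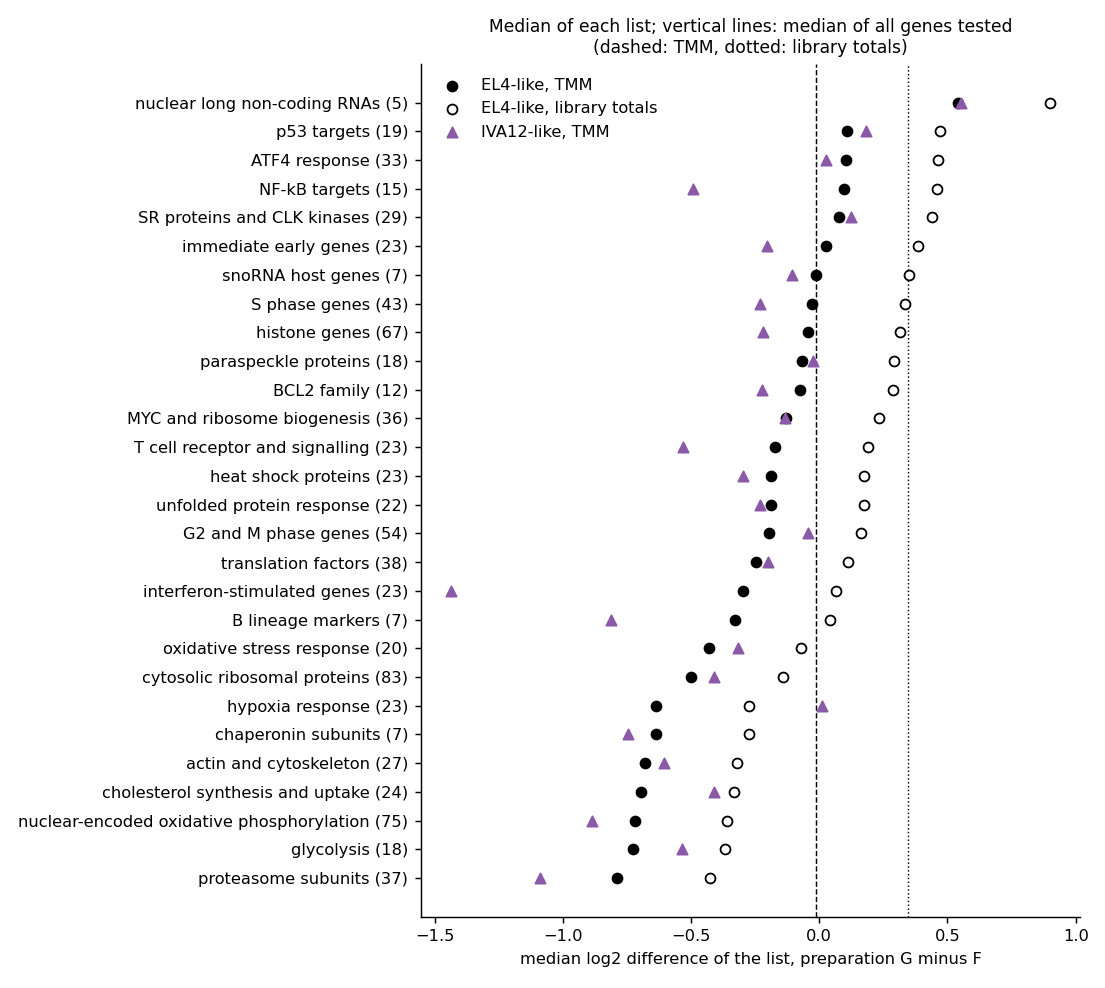
Median log2 difference of G minus F (horizontal axis) for each list, in EL4-like cells after TMM scaling (black) and on library totals (open circles) and in IVA12-like cells (triangles), with vertical lines at the medians of all genes, -0.01 and 0.35. Heat shock, unfolded protein response, G2 and M phase, translation factor, interferon and T cell lists were below 0 with TMM and above 0 on library totals, as all genes moved from -0.01 to 0.35, and stayed below the median of all genes. The proteasome was at -0.79 and -0.43 and at -1.09 in IVA12-like cells.

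Libraries of the same preparation were closer to each other than to the other preparation, but not equal. Over 7148 genes with at least 10 CPM, libraries 22 and 24 differed beyond 1.5-fold in 15 genes (0.210%), and libraries 21 and 23 in 99 genes (1.39%). Chi-square per degree of freedom over genes was 3.58 for libraries 22 and 24 and 66.9 for 21 and 23. It was 111 for 21 and 22 and 252 for 23 and 24. This measure grows with the UMIs summed, which were 42644748 and 77943829 in libraries 21 and 23 and 15903555 and 36458376 in libraries 22 and 24. Its values are therefore not on an equal footing. By the genes beyond 1.5-fold, the spread behind the tests came mostly from libraries 21 and 23, with 2 residual degrees of freedom.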

How the data were processed

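The authors deposited unnormalized counts of UMIs for every gene in each barcode. They downsampled reads with seqtk and aligned and counted them with Cell Ranger 3.0.2 and STAR against a combined hg19 and mm10 reference, keeping all barcodes, so levels depend on that downsampling. Cells, gene lists and limits were chosen with earlier results of these data known. Counts were summed per library over EL4-like cells. Genes of the cell rule and mitochondrial genes stayed in library sizes and out of tests. edgeR 4.0.16 (R 4.3.3; filterByExpr, TMM, robust glmQLFit, glmTreat at 1.5-fold) gave adjusted p-values over all genes tested, and DESeq2 1.42.0 was an alternative. The scripts were tested on simulated data. No doublet caller was run. Barcodes over 100000 UMIs, the thinning to 5000 UMIs, free RNA from barcodes under 100 UMIs, cell limits, scalings and each library left out were tried as alternatives.

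Named genes were Neat1, Malat1, up to 4 called members of each list with the largest differences at 10 CPM or more, and the 12 highest and 12 lowest genes past 1.5-fold at 30 CPM or more, 12 predicted genes being left out. Nr4a1, Sesn2, Bcl2l11, Nfkbid and Trp53inp1 lay below 10 CPM in both libraries of F and passed that limit only through G. Ier3 and Hist4h4 lay below it in both libraries of G and passed only through F. Other genes in the text were chosen after their values were seen. Gene coordinates and sequences were not used here, nor were listed genes outside the deposited gene list. Some items are not reported here.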

Additional observations from a re-analysis of the deposited data

Results flagged for a closer look

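Each result here was picked out because the difference between the preparations was not the same in EL4-like and IVA12-like cells, by edgeR's quasi-likelihood test of that difference between the lines with the library as a block. It was called for 2343 of 12994 genes tested, or 18%, and for 56 of the 121 genes named by rule. Nearly all of the named genes were chosen for the size of their difference in EL4-like cells. Their share therefore cannot be read against that of all genes, and a share for genes chosen alike was not tested. Values in parentheses are the log2 difference of G minus F in EL4-like cells minus that in IVA12-like cells.

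The genes lower in G with the lower value in EL4-like cells included those of hypoxia and glycolysis. They were Bnip3 (-1.32), Bnip3l (-1.13), Slc2a1 (-1.01), Pgk1 (-0.55), Pfkl (-0.55), Pgam1 (-0.52) and Ddit4 (-0.43). The others with a lower value in EL4-like cells were Cd53 (-1.11), Jund (-0.81), Msmo1 (-0.73), Rps26 (-0.70), Rpl22l1 (-0.57), Rpl39 (-0.49), Hist4h4 (-0.41), Eif3e (-0.41), Rsrp1 (-0.29), Bax (-0.27), Rps3a1 (-0.26), Hnrnpk (-0.19), Hnrnpf (-0.16) and Hspa8 (-0.14).

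Genes that fell further in IVA12-like cells included proteasome subunits, chaperonins and interferon-stimulated genes: Psma1 (0.27), Psmc6 (0.30), Psmb2 (0.32), Psmb3 (0.47), Psmb8 (0.77), Cct4 (0.24), Cct5 (0.25), Ifi27 (0.53), Bst2 (0.55) and Ifi35 (0.76). The others were H2afz (0.14), Prdx1 (0.18), Tubb4b (0.20), Eef1d (0.20), Nop10 (0.21), Srsf3 (0.25), Prim1 (0.29), Bad (0.36), Srsf7 (0.36), Rrm2 (0.42), Ndufa4 (0.47), Nfkbib (0.60), Nfkbia (0.72) and Ier3 (1.16).

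Among genes higher in G, the value in IVA12-like cells was larger for Kcnq1ot1 (-0.71), Gabpb2 (-0.50), Slc7a1 (-0.46) and Neat1 (-0.31). It was also larger for Malat1 (-0.36), which was not called in either line, and for Trp53inp1 (-0.65), which had no firm direction in EL4-like cells. It was larger in EL4-like cells for Hist1h1c (1.47), Nfkbid (0.89), Tpcn1 (0.83), Adgrl1 (0.44) and Sod1 (0.39). Besides Malat1, the genes of these lists that were not called in IVA12-like cells were Hist1h1c, Nfkbid, Slc2a1, Pgk1 and Rpl39. Groups of 2 libraries are too small to look for a library apart from the others.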

How the results depend on the processing

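The number of genes called between the preparations stayed within 1.5 times of 6870 under all alternatives, with 4722 to 7709 when a library was left out and 5723 in DESeq2. Past 1.5-fold, 1527 genes became 2555 on library totals and 597 to 2361 with a library left out (2361 without library 21, 661 without 22, 597 without 24). Genes that differed between the lines went from 2343 to 1105 without the library block and to 875 to 2514 with a library left out, 875 without library 24. Where a preparation kept 1 library, that library was assumed to vary like the others. The genes per cell at 5000 UMIs differed by 193.5 to 219 and the human share by -0.706 to -0.204 points with a library left out. No paired analysis was possible because the preparations share no replicate numbers in the labels. The targeted number of cells, which they do share, was used as a block instead, with 7934 genes called and 2128 past 1.5-fold.

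Of the 121 genes named by rule, 105 kept direction and call under the 19 alternatives, 3 of them added after seeing the data. Reversed values were Nfkbib at 0.058 on library totals, Malat1 at -0.30 without library 21 (0.62 and called without library 23), and Trp53inp1 at -8e-04 in cells with 5% to 10% mitochondrial UMIs, at -0.86 with free RNA subtracted and at -0.093 with barcodes over 100000 UMIs also left out. Of these reversed values, that of Malat1 gained a call and the others lost theirs. Of 2299 values, a further 34 lost the call and 1 gained it with the direction kept. The causes were not tested. Subtraction took 23.0% of the mouse UMIs in library 24 (7.09% without its 6 largest barcodes) and 2.66% to 3.62% elsewhere. The tests rest on 2 residual degrees of freedom.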

Other observations

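Cytokine mRNAs, looked at after their values were seen, came from few EL4-like cells. Il17f, a cytokine of type 17 helper cells, had 10.0 and 18.4 CPM in libraries 21 and 23 and 1.17 and 0.507 CPM in libraries 22 and 24, a log2 difference of -4.30 (edgeR adjusted p = 0.00754). A UMI of it was found in 65 cells (4.50%) and 136 cells (5.08%) of F and in 7 cells (1.27%) and 20 cells (1.63%) of G. Cells with at least 10 Il17f UMIs numbered 10 in library 21 and 31 in library 23. They held 63.8% and 81.0% of its UMIs there, and no cell of G had as many. Il17a had 3693 UMIs in library 21, of which 3316 (89.8%) lay in 1 cell, 948 in library 23, and 19 and 9 in libraries 22 and 24. Its difference of -6.81 was not called (adjusted p = 0.124). Il4 and Il13 had 16 and 30 UMIs in library 21, 93 and 58 in library 23, 3 and 1 in library 22, and none in library 24.

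Within preparation F, Nme2 differed between libraries in both mouse lines. Nme2 had 32.4 CPM in library 21 and 327 CPM in library 23 in EL4-like cells, and 74.9 and 669 CPM in IVA12-like cells. In EL4-like cells of preparation G it lay between the values of EL4-like cells in F, with 50.9 and 59.7 CPM.

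EL4-like cells of other kits are given side by side only. Neat1 stood at 58.8 CPM of library totals in library 2 of the 3′ v2 kit (library 1 was not analysed here) and at 139 and 177 CPM in the 5′ v1 libraries. On the same scale it stood at 132 and 103 CPM in preparation F and at 226 and 213 CPM in preparation G.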
